A study of Sus scrofa with 12 samples.

Results

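Genes of cholesterol synthesis were followed in pig skeletal muscle over the first 3 weeks after birth. The members were 8 genes chosen by name, HMGCS1, SQLE, FDFT1, FDPS, IDI1, INSIG1, LSS and DHCR7, and every probe set (the group of short probes that reads one transcript) carrying one of these symbols was taken. The probe table names 5 of the 8 genes, HMGCS1, SQLE, FDFT1, FDPS and INSIG1, through 6 of the 24123 probe sets on the Affymetrix porcine array. IDI1, LSS and DHCR7 carry no symbol there and were not analysed here. Of the 6 probe sets, 5 passed a filter on dim signals, 1 for each of the 5 genes, among 14399 probe sets tested that stood for 5296 named genes. No gene of cholesterol uptake is among the members; genes of uptake are described further on as a separate list.

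The study sampled muscle at day 0 (within 24 hours of birth), day 7, day 14 and day 21, with 3 biological replicates at each age and 12 arrays in all. The labels give the tissue and the age. They name no breed, sex, muscle or treatment for any group, and they do not say whether animals of different ages were littermates. The tissue label was checked against 10 muscle genes, of which 7 are named on the array. CKM, the muscle creatine kinase, lay between 36117.1 and 60466.5 on the 12 arrays, far above the array medians of 146.2 to 172.6. ALB, the liver albumin, was dim throughout (7.3 to 68.9). Not all liver genes were dim. Of 8 hepatocyte genes listed further on 3 passed the filter, among them APOA1 at 1359.7 to 5189.3.

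Cells make cholesterol from acetyl-CoA through the mevalonate pathway, which leads to the isoprenoid farnesyl diphosphate, then to squalene, and then through a series of sterols to cholesterol. The genes of the pathway are switched on together by the transcription factor SREBP-2. Its precursor is carried out of the endoplasmic reticulum by SCAP when sterols are scarce, and INSIG proteins hold SCAP back when sterols are plentiful. INSIG1 is itself a target of SREBP, and muscle cells can also take up cholesterol from lipoproteins.

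Values are MAS5 signals (brightness on a linear scale, with every array scaled to the same trimmed mean). Changes are differences between the mean log2 signals of 2 ages, later minus earlier, ± SE, over 3 arrays of each age where no other number is named. The p-values are limma's, with the Benjamini-Hochberg method applied to the 14399 probe sets together, and a gene was called at 0.05 or below. Counts at an unadjusted p under 0.05 are also given. The share of all probe sets at that unadjusted p was not counted, so nothing is read from those counts. The probe sets differ in how strongly they bind, so levels are compared between ages and not between genes. In whole muscle, a change in the share of a cell type cannot be told apart from a change in RNA per cell. The labels call the replicates biological and give no batch, and the small number of arrays limits what can be told apart.

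One array has to be described before the results. On day 0 replicate 3 all 5 members had a higher signal than on both other day 0 arrays. The array also lay nearer to the later ages over all genes, with a first principal component score of -35.0, while the other day 0 arrays scored -62.6 and -62.7 and the later ones 10.8 to 25.2. Its poly-A spike 3′ to 5′ log2 ratio was 0.20, against 0.27 and 0.99 on the other day 0 arrays and 0.08 to 0.36 later. The members' results that use day 0, or a spread estimated with it, are therefore given with all 12 arrays, and many of them also without this one. Since the array was set apart after its values were seen, partly because the members stood high on it, the values without it describe the other 11 arrays and are no independent evidence.

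INSIG1, the sterol-sensing protein of the endoplasmic reticulum that retains SCAP, had the widest swing of the members. Its signal was 285.2, 388.0 and 2899.9 on the day 0 arrays. It was 2874.3, 2063.6 and 2451.2 at day 7. It was 647.1, 666.3 and 423.3 at day 14, and 665.2, 643.5 and 509.0 at day 21. All 3 day 7 arrays were thus above all 6 arrays of days 14 and 21 and above 2 of the 3 day 0 arrays, while day 0 replicate 3 was the brightest of all. A second INSIG1 probe set, left out of the tests as too dim, was likewise high at day 7 and on day 0 replicate 3, at 15.1, 11.4 and 167.9 at day 0, 142.1, 213.0 and 136.9 at day 7, 40.6 to 63.7 at day 14 and 54.8 to 92.5 at day 21.

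INSIG1 differed by 1.83 ± 0.61 between day 7 and day 0 with all 12 arrays, which did not pass (limma adjusted p = 0.0781). With day 0 replicate 3 left out it rose by 2.88 ± 0.25 (adjusted p = 5.32e-05, 2 arrays at day 0). Between day 14 and day 7 it was lower by 2.11 on the log2 scale, a difference of -2.11 ± 0.61 with all arrays (adjusted p = 0.661). The same -2.11 had an SE of 0.22 and passed without day 0 replicate 3 (adjusted p = 0.00800), and it also passed when only the day 14 and day 7 arrays were fitted (adjusted p = 0.0263). Day 21 against day 7 gave -2.02 ± 0.61 (adjusted p = 0.596), and -2.02 ± 0.22 without that array (adjusted p = 0.00628). Days 21 and 14 did not differ beyond their spread (0.09 ± 0.61, with a 95% interval of -1.23 to 1.40, and -0.40 to 0.57 without day 0 replicate 3). Against day 0, day 21 was at -0.19 ± 0.61 with all arrays and at 0.86 ± 0.25 without replicate 3, where INSIG1 rose (adjusted p = 0.0398), so the direction turned with that array.

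FDPS, the farnesyl diphosphate synthase that supplies the last isoprenoid before squalene, followed INSIG1. Its signal was 732.0, 785.4 and 2226.9 at day 0. It was 2805.5, 2783.1 and 1846.1 at day 7, then 871.9, 1001.8 and 873.9 at day 14 and 1015.6, 844.7 and 1004.7 at day 21. The day 7 arrays were again above all arrays of days 14 and 21 and above day 0 replicates 1 and 2, and day 0 replicate 3 lay among them.

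FDPS rose by 1.16 ± 0.34 between day 7 and day 0 (limma adjusted p = 0.0470). That call was lost in 18 of 23 alternatives, including leaving out any single array other than day 0 replicate 3 (adjusted p between 0.0571 and 0.156). The rise was 1.68 ± 0.21 without day 0 replicate 3 (adjusted p = 0.000547). From day 7 to day 14 FDPS differed by -1.41 ± 0.34 (adjusted p = 0.606), or -1.41 ± 0.19 without day 0 replicate 3, where the fall passed (adjusted p = 0.0247). Day 21 against day 7 gave -1.35 ± 0.34 (adjusted p = 0.424), and -1.35 ± 0.19 without that array, which also passed (0.0381). Days 21 and 14 differed by 0.06 ± 0.34 (95% interval -0.67 to 0.79). FDPS was the only member called in the F test over the 4 ages with all arrays (adjusted p = 0.0408), where 8.88% of all probe sets were called. Both INSIG1 (0.000153) and FDPS (0.00105) were called in it when day 0 replicate 3 was left out, against 9.63% of all probe sets.

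Few probe sets were called after day 7. With all 12 arrays 0 of 14399 were higher and 1 was lower between day 14 and day 7 (0.00694%), and that one carries no symbol. Leaving out day 0 replicate 3 gave 0 higher and 3 lower ones (0.0208%), INSIG1, FDPS and the unnamed one, and the same 3 were lower between day 21 and day 7. Nothing is read from that count, because leaving out an array on which INSIG1 and FDPS stood high narrows the spread estimated for them, while the differences between the later ages are the same numbers. Without day 0 replicate 1 instead, day 14 against day 7 had an adjusted p of 0.414 for INSIG1 and 0.398 for FDPS, and neither was called.

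**Figure D1:**
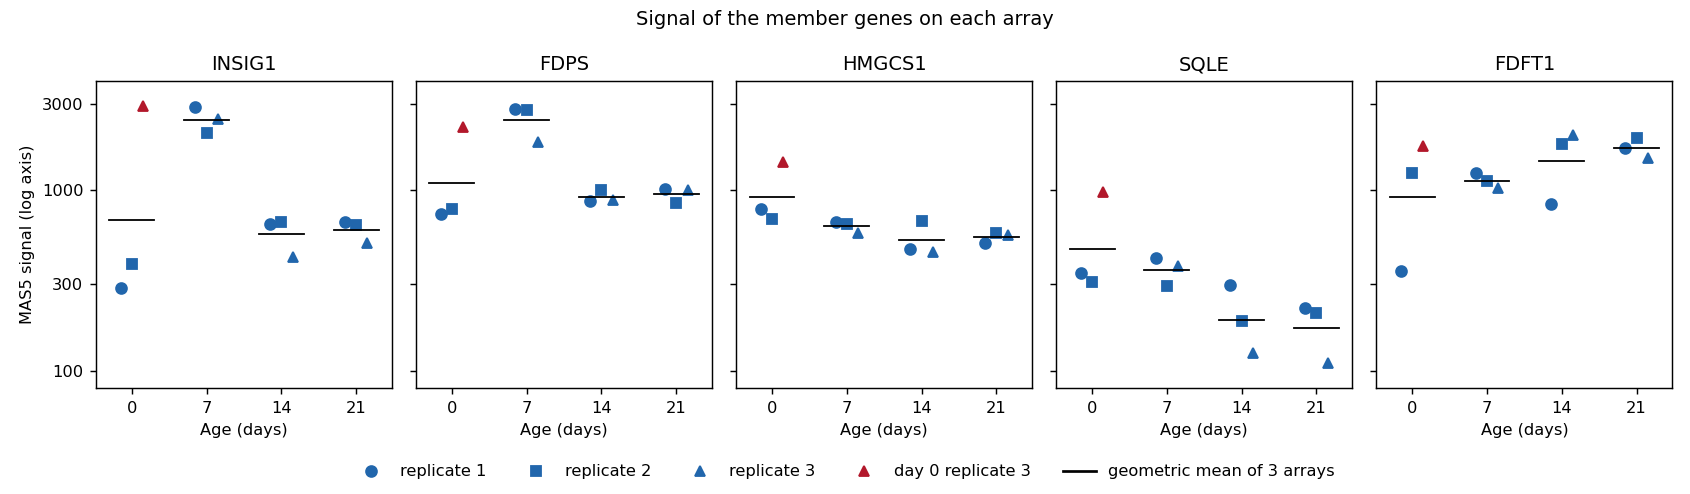
MAS5 signal (log axis) of the 5 tested members on each of the 12 arrays by age in days, with 3 replicates per age, black bars at the geometric mean of 3 arrays and day 0 replicate 3 in red. INSIG1 and FDPS stand high on all 3 day 7 arrays and on day 0 replicate 3, while FDFT1 does not share the fall after day 7.

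HMGCS1, the cytosolic HMG-CoA synthase at the start of the pathway, had its highest signals at day 0, at 786.6, 687.0 and 1429.0. It was 661.7, 646.6 and 579.8 at day 7, 473.0, 676.1 and 452.6 at day 14, and 509.1, 576.1 and 561.7 at day 21. All 3 day 0 arrays were above all 9 later ones, by a narrow margin for replicate 2. Unlike INSIG1 and FDPS, HMGCS1 was not higher at day 7 than at day 0 (-0.55 ± 0.25, limma adjusted p = 0.20). Leaving out day 0 replicate 3 gave -0.23 (0.527) for that difference, whereas on the hybridization control scale HMGCS1 fell (-0.85, 0.0377). Day 14 against day 0 (-0.81 ± 0.25, adjusted p = 0.0542) and day 21 against day 0 (-0.74 ± 0.25, 0.0748) missed the threshold. They were -0.49 ± 0.21 (0.145) and -0.42 ± 0.21 (0.205) without day 0 replicate 3. HMGCS1 passed as lower in 5 of 23 alternatives at day 14 and in 3 of 23 at day 21, among them the hybridization control scale (-1.17, 0.00657, and -1.12, 0.00872), the poly-A covariate (0.0268 and 0.0423) and leaving out day 0 replicate 2 (0.0344 and 0.0451). Day 14 against day 7 was -0.26 ± 0.25, and day 21 against day 14 was 0.06 ± 0.25 (95% interval -0.48 to 0.61).

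SQLE, the squalene epoxidase and a control point of the sterol branch, had signals of 347.3, 309.7 and 972.5 at day 0. It had 417.5, 294.6 and 377.7 at day 7, 297.6, 187.1 and 125.0 at day 14, and 222.3, 207.2 and 110.4 at day 21. Every day 21 array was below every array of days 0 and 7. SQLE fell by 1.45 on the log2 scale between day 21 and day 0 (-1.45 ± 0.44, limma adjusted p = 0.0466), and it was the only member called in that comparison, in which 4.90% of all probe sets were called lower. The call was lost in 13 of 23 alternatives, among them leaving out day 0 replicate 3 (-0.93 ± 0.38, 0.127), any day 7 array (0.0594 to 0.0612), day 14 replicate 2 (0.0595) or any day 21 array (0.0651 to 0.170). Day 14 against day 0 was -1.30 ± 0.44 (0.0660), and -0.78 without day 0 replicate 3. Day 14 against day 7 was -0.91 ± 0.44 (0.841) and day 21 against day 7 was -1.06 ± 0.44 (0.717). Without day 0 replicate 3 the limma adjusted p of these differences was 0.660 and 0.524. Day 7 against day 0 was -0.39 ± 0.44, and 0.13 without day 0 replicate 3.

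FDFT1, the squalene synthase that joins farnesyl units, took a different course. Its signal was 356.1, 1236.3 and 1753.6 at day 0, so that these arrays spanned the widest range of any age. It was 1243.7, 1118.9 and 1024.8 at day 7, 832.6, 1782.8 and 2002.4 at day 14, and 1710.6, 1938.3 and 1498.3 at day 21. All 3 day 21 arrays were above all 3 day 7 arrays, the opposite order to the other members. None of its differences passed the limma test. Day 21 against day 7 was 0.60 ± 0.47 (adjusted p = 0.890) and day 21 against day 0 was 0.90 ± 0.47 (0.232), or 1.36 ± 0.45 without day 0 replicate 3 (0.0614) and 0.21 without day 0 replicate 1 (0.716). Day 7 against day 0 was 0.30 ± 0.47, and 0.76 without day 0 replicate 3, but -0.39 without day 0 replicate 1 and -0.012 after scaling to the hybridization controls.

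Counted over the 5 genes, 1 member (FDPS) rose and 0 fell between day 7 and day 0, where 5.76% of all probe sets were called higher and 3.64% lower. With day 0 replicate 3 left out, 2 rose (INSIG1 and FDPS) and 0 fell, beside 7.04% and 4.55% of all probe sets. Between day 14 and day 0, 0 were called by limma (2 at an unadjusted p under 0.05), beside 6.74% higher and 5.60% lower. Between day 21 and day 0, 0 rose and 1 (SQLE) fell, beside 6.61% and 4.90%, and with day 0 replicate 3 left out 1 (INSIG1) rose and 0 fell, beside 8.07% and 5.98%. In HMGCS1 and SQLE the day 21 arrays were all below the day 0 arrays, as in 13.7% of all probe sets, and in the same pair of genes the day 14 arrays were, as in 13.9%.

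After day 7, limma called 0 members with all arrays. At an unadjusted p under 0.05 there were 2 for day 14 against day 7 and 3 for day 21 against day 7 (share of all probe sets not counted). Between day 21 and day 14, 0 had an unadjusted p under 0.05, and 0 of all probe sets were called (0%). The median change of the members was -0.91 for day 14 against day 7 and -1.06 for day 21 against day 7, with 4 of 5 lower in each, while 48.4% and 48.9% of all probe sets were lower. INSIG1 and FDPS were lower without overlap at day 14, as were 7.33% of all probe sets. At day 21 this held for INSIG1, FDPS, HMGCS1 and SQLE (7.57% of all probe sets), and FDFT1 was higher without overlap (8.49%).

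**Figure D2:**
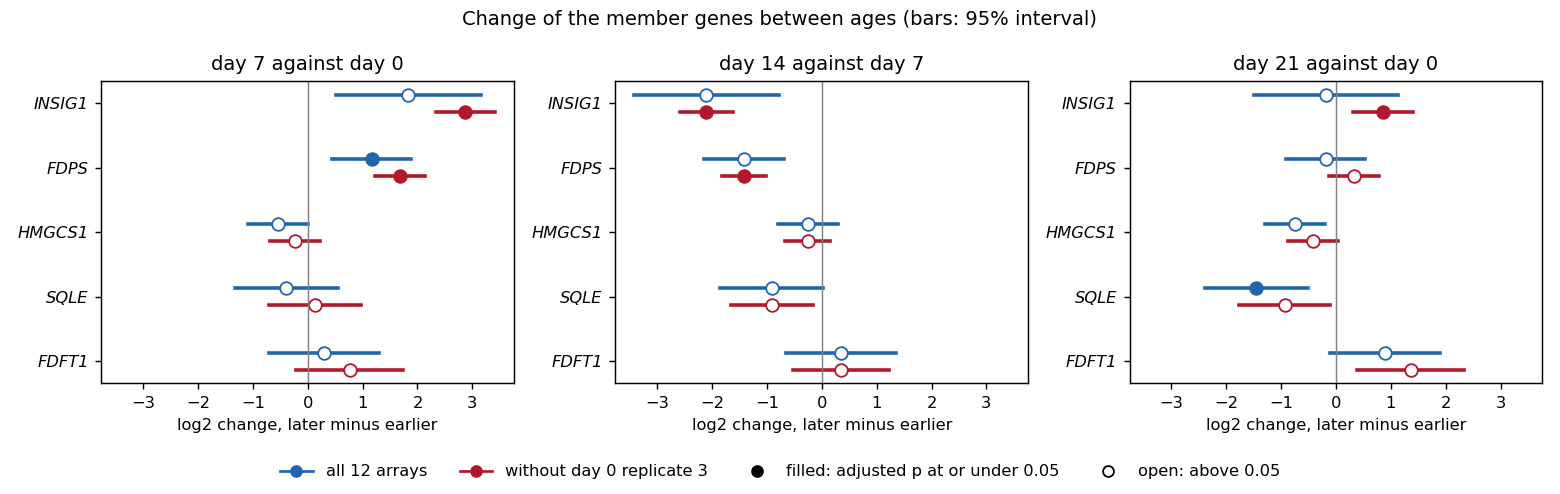
log2 change (later minus earlier age) of the 5 members in 3 comparisons with 95% intervals, with all 12 arrays (blue) and without day 0 replicate 3 (red); filled points have an adjusted p at or under 0.05. INSIG1 and FDPS between day 14 and day 7 keep -2.11 and -1.41 while their intervals narrow, and INSIG1 between day 21 and day 0 turns from -0.19 to 0.86.

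The members did not all vary together. Over the 12 arrays INSIG1 and FDPS had a Pearson correlation of 0.950, and HMGCS1 and SQLE of 0.772. FDFT1 correlated with the other 4 between -0.27 and 0.20. Over the 9 later arrays INSIG1 and FDPS stood at 0.940, SQLE and INSIG1 at 0.850, and FDFT1 with SQLE at -0.68. These are descriptions, since the arrays share ages and a common scaling.

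Day 0 replicate 3 stood 3.12 log2 units above the mean of the other day 0 arrays in INSIG1, which put it at the 99.9th percentile of all tested probe sets. SQLE was higher there by 1.57, FDPS by 1.55, FDFT1 by 1.40 and HMGCS1 by 0.96. Over all tested probe sets 5.71% were higher on this array by 1 or more. Of 7 muscle genes 6 were brighter on it than on both other day 0 arrays, most of all MYH2, the fast IIa myosin heavy chain, at 15660.7 against 5402.5 and 6747.6 (97.6th percentile). TNNT3, CKM and TTN were between the 71.7th and 76.7th percentile, and DES, the muscle intermediate filament, was not brighter, at 23379.5 against 18781.1 and 26528.4. The summed signal of 7 muscle genes was 226075.3 on it, against 154014.2 and 177109.8 on the other day 0 arrays and 231576.5 to 262934.3 at day 7. The summed signal of 5 fibroblast genes (of 7 listed) was 34889.8, against 17540.0 and 22794.1, mostly through DCN (21505.5, against 10746.8 and 12148.9) and COL1A2 (3653.0, against 1302.6 and 657.4). COL3A1 was lower on it (646.0, against 793.9 and 822.9), and LUM (5145.1) was below replicate 2 (5239.6). The part of these differences in the members' values was not tested.

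**Figure D3:**
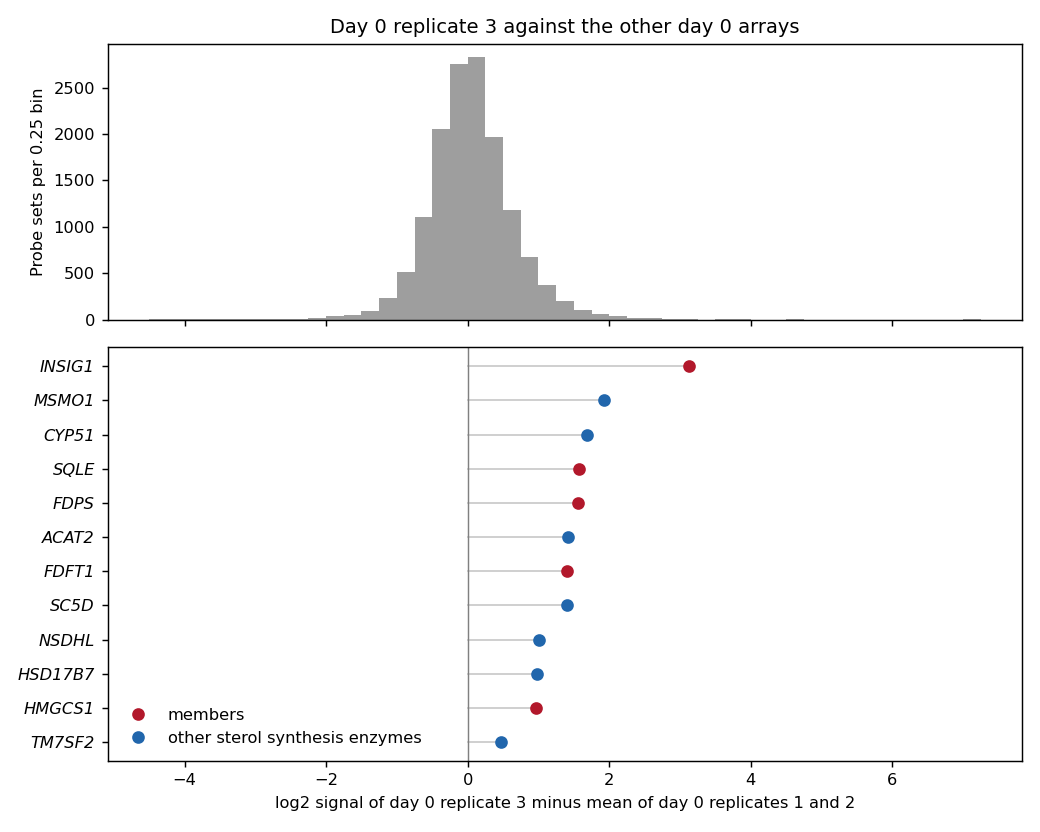
Upper panel, distribution over all 14399 tested probe sets of the log2 signal of day 0 replicate 3 minus the mean of day 0 replicates 1 and 2; lower panel, the same difference for the 5 members (red) and 7 other sterol synthesis enzymes (blue). All 12 genes lie above 0, from 0.47 for TM7SF2 to 3.12 for INSIG1.

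Other enzymes of the pathway were taken from a list of 18 symbols (some of them synonyms), of which 7 genes are named on the array and all 7 were tested. CYP51, the lanosterol 14-alpha-demethylase, had signals of 566.8, 709.1 and 2030.1 at day 0, and 1612.4, 1203.8 and 1037.3 at day 7. It had 481.7 to 664.9 at day 14 and 441.4 to 568.1 at day 21. MSMO1, the sterol C4-methyl oxidase, had 339.9, 371.0 and 1355.8 at day 0 and 757.7, 660.4 and 635.9 at day 7. Its day 14 and day 21 arrays lay between 229.2 and 375.2. Both thus had the order of INSIG1 and FDPS, high at day 7 and on day 0 replicate 3.

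From day 7 to day 14, 7 of these 7 enzymes were lower in the brightest probe set of each. Their arrays did not overlap in 7 of 7, where 7.33% of all probe sets were lower without overlap. A second tested NSDHL probe set did overlap, at 142.8, 81.4 and 90.7 at day 7 and 220.3, 111.0 and 66.3 at day 14. A second tested ACAT2 probe set did not (151.8 to 197.1, then 130.6 to 132.8). None of the 7 enzymes passed the limma test (0 called with all arrays or without day 0 replicate 3, and 6 at an unadjusted p under 0.05). The median change was -0.95, against 0.010 over all tested probe sets. The largest differences were in CYP51 (-1.18 ± 0.37, adjusted p = 0.667), ACAT2, which makes acetoacetyl-CoA (-1.17 ± 0.33, 0.641), and MSMO1 (-1.13 ± 0.42, 0.760). TM7SF2, a sterol C14 reductase, was at -0.95 ± 0.30, SC5D, a sterol C5 desaturase, at -0.84 ± 0.32, NSDHL, a sterol dehydrogenase, at -0.67 ± 0.29 and HSD17B7, a keto reductase of the same step, at -0.40 ± 0.35.

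Between day 7 and day 0, 5.76% of all probe sets were called higher and 3.64% lower. From day 0 to day 7 only TM7SF2 of the 7 rose (1.25 ± 0.30, limma adjusted p = 0.0225) and 0 fell. Its arrays were at 1062.8, 1300.5 and 639.3 at day 7, against 498.1, 261.5 and 500.6 at day 0. TM7SF2 lost its call when day 0 replicate 2 (0.94, adjusted p = 0.0726), day 7 replicate 1 (1.18, 0.0792) or day 7 replicate 2 (1.03, 0.0945) was left out and when only both ages were fitted (0.0781). With day 0 replicate 3 left out, 4 of 7 rose, beside 7.04% of all probe sets. They were TM7SF2 (1.41 ± 0.33, 0.0165), CYP51 (0.99 ± 0.24, 0.0177), MSMO1 (0.94 ± 0.25, 0.0307) and SC5D (0.82 ± 0.22, 0.0308). With all arrays CYP51 was at 0.43, SC5D at 0.36 and MSMO1 at 0.30, and MSMO1 stood at -0.0080 after scaling to the hybridization controls.

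NSDHL had another course, closer to that of HMGCS1. Its signals were 309.6, 310.0 and 620.9 at day 0, 195.7, 215.0 and 211.7 at day 7, 102.9 to 165.3 at day 14 and 144.9 to 165.4 at day 21. Every day 0 array was above every later array in this probe set. The second, dimmer NSDHL probe set had 165.2, 122.2 and 178.2 at day 0. Of its day 14 arrays replicate 1 (220.3) was above all of these, while its day 21 arrays (76.7, 26.6 and 115.8) were below them. The changes given are of the brighter probe set. NSDHL fell by 1.32 between day 21 and day 0 (-1.32 ± 0.29, limma adjusted p = 0.0125), and by 0.98 without day 0 replicate 3 (-0.98 ± 0.27, 0.0308), and the call was lost with only both ages fitted (0.0513). ACAT2 and NSDHL were called in the F test (0.0443 and 0.0163, and 0.0097 and 0.0390 without day 0 replicate 3). Of all probe sets 8.88% were called in it, and 9.63% without that array.

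**Figure D4:**
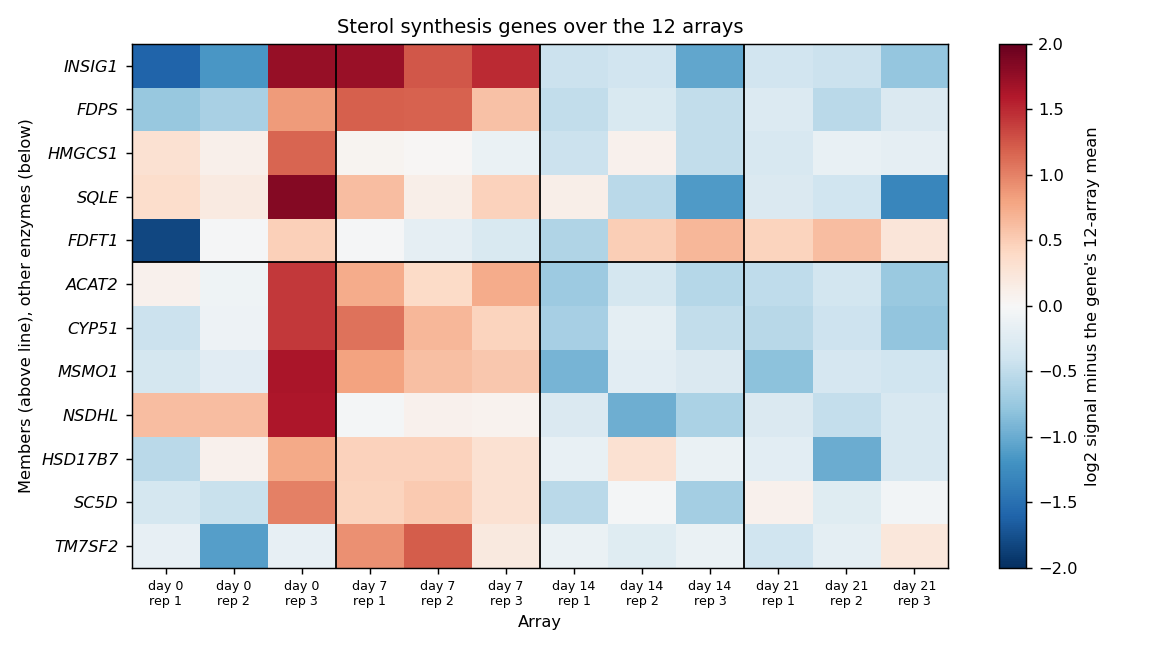
log2 signal of the brightest tested probe set of each gene minus its own 12-array mean, for the 5 members (above the line) and 7 other sterol synthesis enzymes (below), on the 12 arrays in order of age. Most genes are high on day 0 replicate 3 and the day 7 arrays and low at days 14 and 21; HMGCS1 and NSDHL are highest at day 0, and FDFT1 is not low at days 14 and 21.

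Among the control genes of the pathway, 5 of 12 listed genes are named and 4 were tested. Of all probe sets 3.64% were called lower between day 7 and day 0, and 5.60% between day 14 and day 0. SREBF2, which encodes SREBP-2, had signals of 830.4, 1038.2 and 2170.7 at day 0, 1438.4, 970.6 and 506.4 at day 7, 666.7, 520.2 and 316.3 at day 14, and 545.6, 681.4 and 810.3 at day 21. Its day 7 arrays spread over the range of the other ages. It fell between day 14 and day 0 (-1.36 ± 0.41, limma adjusted p = 0.0458), and the call was lost in 15 of 23 alternatives, for example without day 0 replicate 3 (-0.96, 0.128) or day 14 replicate 3 (-1.07, 0.165). Averaging the probe sets of the gene also lost it (-1.24, 0.0739). A second tested SREBF2 probe set overlapped, with 116.3, 200.3 and 245.2 at day 0 and 179.2, 37.5 and 82.4 at day 14. SCAP, the escort of SREBP, had 757.7, 1257.7 and 588.1 at day 0, 477.4, 533.6 and 332.8 at day 7, 408.5 to 485.8 at day 14 and 466.5 to 525.7 at day 21. Every later array was below every day 0 array. SCAP fell between day 7 and day 0 (-0.91 ± 0.26, 0.0461) and between day 14 and day 0 (-0.87 ± 0.26, 0.0452), and by 1.15 and 1.11 without day 0 replicate 3 (0.0136 for each). These calls were lost in 16 and 15 of 23 alternatives, for example without day 0 replicate 2 (-0.60, adjusted p = 0.146, and -0.57, 0.148). SREBF1, the gene of SREBP-1, was too dim to be tested, at 27.9 to 138.6. INSIG2 and ERLIN2, also tested, were higher in means at each later age than at day 0 and were not called. INSIG2 had 494.7, 447.2 and 510.5 at day 0 and 526.2, 637.8 and 788.2 at day 7. The brightest ERLIN2 probe set had 140.5, 119.6 and 123.0, then 205.5, 182.6 and 207.4. A second tested ERLIN2 probe set did not share that order, with 105.6, 64.3 and 137.5, then 67.4, 72.1 and 82.5.

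Of the 12 genes of uptake and intracellular transport, 8 are named and 7 were tested. Of all probe sets 6.74% were called higher between day 14 and day 0, and 6.61% between day 21 and day 0. One of the 7, VLDLR, a receptor for triglyceride-rich lipoproteins, was called. Its signals were 3280.9, 4295.8 and 5576.3 at day 0, 5707.4 to 6915.4 at day 7, 5451.9 to 9106.3 at day 14 and 6292.2 to 8657.1 at day 21. It rose between day 21 and day 0 (0.75 ± 0.22, limma adjusted p = 0.0436) and between day 14 and day 0 (0.73 ± 0.22, 0.0468), and by 0.94 (0.0146) and 0.92 (0.0160) without day 0 replicate 3, where it also rose between day 7 and day 0 (0.75, 0.0429). Each call was lost in 16 of 23 alternatives, the first for example without day 0 replicate 1 (0.55, 0.127) and on the hybridization control scale (0.37, 0.155). It was also lost when the probe sets of the gene were averaged (0.66, 0.0893). A second tested VLDLR probe set overlapped between these ages. It had 395.5, 224.2 and 483.5 at day 0, 368.5, 698.9 and 622.2 at day 14, and 557.1, 440.3 and 585.8 at day 21. SCARB1, the receptor for high density lipoprotein, was picked after its values were seen and was not called. It had 446.7, 562.1 and 965.9 at day 0, 1202.8, 870.4 and 764.7 at day 7, 348.3 to 549.1 at day 14 and 529.2 to 791.6 at day 21, and was thus bright at day 7 and on day 0 replicate 3.

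Of 9 genes of cholesterol efflux and oxysterol response, 5 were tested and 1 rose. Of all probe sets 5.76% were called higher between day 7 and day 0, and 6.61% between day 21 and day 0. CYP27A1, the sterol 27-hydroxylase of mitochondria, had 197.4, 142.4 and 273.9 at day 0, 357.6 to 449.5 at day 7, 440.0 to 547.1 at day 14 and 514.4 to 608.6 at day 21. It rose by 1.02 ± 0.23 between day 7 and day 0 (limma adjusted p = 0.0188) and by 1.50 ± 0.23 between day 21 and day 0 (0.00229), or by 1.26 (0.00394) and 1.74 (0.000515) without day 0 replicate 3, with the second call kept in 23 of 23 alternatives. The first was lost in 5 of 23, without day 0 replicate 2 (0.79, 0.0575), day 7 replicate 2 (1.02, 0.0610) or day 7 replicate 3 (0.94, 0.0696), on the hybridization control scale (0.71, 0.0978) and with only both ages (0.0815). Of 9 genes of the branches that leave the mevalonate pathway, 4 were tested. Between day 21 and day 0, 2 of the 4 fell, beside 4.90% of all probe sets. PDSS1, which builds the side chain of coenzyme Q, was at -0.97 ± 0.22 (0.0149, and 0.0555 with only both ages fitted), and FNTB, the beta subunit of protein farnesyltransferase, at -1.70 ± 0.40 (0.0176). The values without day 0 replicate 3 were -0.93 (0.0303) for PDSS1 and -2.15 (0.00304) for FNTB, which then also fell between day 7 and day 0 (-1.44, 0.0258) and between day 14 and day 0 (-1.36, 0.0293). Without that array the brightest probe set of FNTA, the alpha subunit of the same enzyme, rose between day 21 and day 0 (0.58, 0.0235, against 0.45, 0.0771 with all arrays). A second tested FNTA probe set did not share that rise. It had 2161.8, 2283.8 and 1981.0 at day 0 and 1661.9, 2061.9 and 2043.6 at day 21. FNTB lost its call when day 0 replicate 1 (-1.40, 0.0598), day 0 replicate 2 (-1.56, 0.0592), day 21 replicate 2 (-1.56, 0.0534) or day 21 replicate 3 (-1.63, 0.0623) was left out, and with a covariate for the poly-A ratio (-1.47, 0.0968).

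Of 12 genes of fatty acid synthesis under SREBP-1, 9 are named and 6 were tested. In limma 0 were called in any comparison with all arrays, with a median change of -0.06 between day 14 and day 7 against -0.95 in the other sterol enzymes. SCD, the stearoyl-CoA desaturase, also picked after its values were seen, had 705.4, 493.8 and 1481.3 at day 0, 1169.6, 1178.0 and 890.3 at day 7, 1077.7, 655.5 and 324.6 at day 14 and 390.0, 478.3 and 364.7 at day 21. It was thus also high on day 0 replicate 3, and its day 14 arrays spread over most of the range (day 14 against day 7, -0.81 ± 0.41, adjusted p = 0.848).

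The members' standardized log2 profiles were averaged, and 5291 other named genes were ranked by their correlation with that average over the 12 arrays. The highest were CYP51 (0.950), GLRX, a glutaredoxin (0.929), MSMO1 (0.927), SC5D (0.921), ACAT2 (0.886), ARL6IP5 (0.867), MSRB1, a methionine sulfoxide reductase (0.853), and SERHL2 (0.838). Of these 8, 4 are in the list of other sterol synthesis enzymes. Over the 11 arrays without day 0 replicate 3, CYP51 (0.957) was still first, ARL6IP5 (0.689) was at rank 85, and the other 6 were within the first 10. The lowest were CWF19L2 (-0.888), DNTTIP2 (-0.865), LOC102164640 (-0.856) and LPIN1, a phosphatidate phosphatase (-0.843). LPIN1 moved to -0.60 and rank 126 from the low end without day 0 replicate 3. None of the 12 was called between day 14 and day 7 with all arrays. LPIN1 had 1989.9, 1253.5 and 239.9 at day 0, so that its lowest value of all fell on day 0 replicate 3, and it had 552.6 to 940.3 at day 7 and 1076.3 to 1749.6 at day 14. A second LPIN1 probe set did not share that low value, with 1077.0, 519.3 and 543.1 at day 0.

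Markers of other cell types were set beside the members. Between day 14 and day 7, limma called 0 genes among 4 adipocyte, 4 Schwann cell, 3 hepatocyte, 5 macrophage, 5 fibroblast, 7 endothelial and 4 erythroid genes tested (0 to 1 per list at an unadjusted p under 0.05). The summed signal of 6 adipocyte genes of 9 listed was 8360.7 to 14508.7 at day 14, against 5640.3 to 10493.2 at day 7. ADIPOQ, the adipocyte hormone adiponectin, was dim throughout (19.0 to 197.0), while FABP4 (2155.5 to 6762.3) and LPL (2789.7 to 6697.9) were bright. SOX10 of the Schwann cell list was at 2.4 to 119.1 over all arrays, while S100B was at 320.3 to 705.2. The brightest MBP probe set was at 488.8 to 5102.7, and other tested MBP probe sets were at 8.2 to 336.1 and at 25.6 to 314.9. The summed signal of 5 Schwann cell genes of 9 was 1557.6 to 2234.8, against 1251.0 to 2107.7. That of 8 hepatocyte genes of 8 was 1714.6 to 2285.5, against 2173.0 to 3527.4, and that of 5 macrophage genes of 8 was 963.8 to 1872.7, against 1218.2 to 1324.9. That of the 5 fibroblast genes was 24178.2 to 38568.2, against 24285.8 to 33617.0. The summed signal of 7 endothelial genes of 7 was 7871.0 to 8377.7 at day 14, against 8096.2 to 8926.7 at day 7, and that of 4 erythroid genes of 8 was 1491.9 to 1960.6, against 1361.8 to 1565.5. The members' summed signal was 3122.2 to 4314.1 at day 14, against 6279.6 to 8002.7 at day 7. The ranges of both ages overlapped in each of the 7 lists of cell type genes. Overlap of sums over 3 arrays per age does not show that the share of a cell type stayed the same. A sum mostly follows the brightest genes of its list. Single genes of the hepatocyte, Schwann cell, endothelial and erythroid lists did not overlap between both ages. The part of these cells in the members' difference between day 14 and day 7 was not tested.

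Between day 7 and day 0 the endothelial genes moved beside FDPS. Of 7, 3 rose and 1 fell with all arrays, beside 5.76% and 3.64% of all probe sets. The summed endothelial signal was 8096.2 to 8926.7 at day 7, against 4734.8 to 5745.1 at day 0. The counts were the same without day 0 replicate 3, beside 7.04% and 4.55%. CDH5, the cadherin of vascular endothelium, rose by 1.43 ± 0.23 (limma adjusted p = 0.00356, and 1.31, 0.00644, without that array). PECAM1, an adhesion molecule of the same cells, rose by 0.88 ± 0.16 (0.00674, and 0.90, 0.00862), while ENG fell (-0.72 ± 0.20, 0.0388, and -0.86, 0.0197). Unlike the members, CDH5 was not high on day 0 replicate 3, with 1009.3, 784.1 and 688.3 at day 0 and 2031.3 to 2338.3 at day 7.

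Of 7 muscle genes 1 rose (MYH2) and 1 fell (DES) between day 7 and day 0, beside 5.76% and 3.64% of all probe sets. Without day 0 replicate 3, 3 rose (MYH2, TNNT3 and TTN) and 0 fell, beside 7.04% and 4.55%. Of 4 erythroid genes 1 fell, HBB, the beta globin (-0.98 ± 0.24, limma adjusted p = 0.0235, and -1.18, 0.00882, without that array), and the summed erythroid signal was 1361.8 to 1565.5 at day 7, against 1687.3 to 2845.4 at day 0. Of 3 tested hepatocyte genes SERPINA1, a protease inhibitor, rose (1.18 ± 0.35, 0.0485). That call was lost in 17 of 22 alternatives, including leaving out day 0 replicate 3 (0.95, 0.114) and the hybridization control scale (0.88, 0.123). In limma 0 of the 4 adipocyte, 4 Schwann cell, 5 macrophage and 5 fibroblast genes were called in their brightest probe sets, and 0 had an unadjusted p under 0.05. MBP of the Schwann cell list has other tested probe sets, which were higher at day 7. The first had 63.6, 8.2 and 8.3 at day 0 and 266.4, 213.2 and 215.8 at day 7. The second had 71.4, 25.6 and 36.6, then 183.6, 225.8 and 87.2. The brightest MBP probe set had 5102.7, 876.1 and 697.8, then 803.1, 1117.9 and 488.8. The part of these cells in the members' differences was not tested.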

How the data were processed

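Total RNA of 12 muscle samples was labelled with biotin from 6 ug and hybridized to Affymetrix porcine arrays, per the labels' protocols. The authors deposited one MAS5 intensity for each probe set, on a linear scale (tool from the submitters' processing notes, version not given in the sources used here). The 2% trimmed mean was near 499.5 on every array. They were used on the log2 scale without renormalizing. Of 24123 probe sets, 124 controls and the lowest 40% by mean log2 signal (limit 90.3) were left out. Symbols came from the probe table (10099 probe sets with 1 symbol, 198 with several), with 9989 matched by Entrez identifier and 0 changed. The brightest tested probe set stood for a gene. limma 3.58.1 (R 4.3.3) fitted a mean per age over 12 arrays with eBayes and a variance trend, and was tested on simulated data. Depth does not apply to arrays; their number limits the precision.

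Members, lists and tests were chosen with earlier results of these data known. Named genes are all members, up to 4 called genes per list in order of F test p, preset control genes, and the 8 highest and 4 lowest correlated genes. Replicate numbers did not pair the samples (correlation of deviations over 0.1 in 2 of 18 pairs, -0.20 to 0.11). Promoter motifs were not analysed here. Alternatives were no filter, a 60% filter, quantile normalization, scaling on 27 hybridization controls, an offset of 29.7 before log2, no variance trend, array weights, a replicate block, the poly-A ratio (14 probe set pairs) as a covariate, only both ages compared, averaging the probe sets of a gene, and leaving out each array. Figures used matplotlib 3.10.9.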

Additional observations from a re-analysis of the deposited data

How the results depend on the processing

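The number of members called depended on the setting in most comparisons. In the F test 1 member was called, against 3 on the hybridization control scale, 2 with array weights, and 0 without a variance trend or with the replicate block (0 to 2 on leaving out single arrays). For day 7 against day 0, 1 was called, against 0 with no filter, quantile normalization, no variance trend, the replicate block, the poly-A covariate or only both ages (0 to 2 on leaving out arrays). On the hybridization control scale the count was also 1, but FDPS lost its call (0.86, adjusted p = 0.0840) and HMGCS1 was called lower (-0.85, 0.0377). For day 14 against day 0, 0 were called, against 1 with the 60% filter and 2 on the hybridization control scale or with the poly-A covariate (0 to 1). For day 21 against day 0, 1 was called, against 2 on the hybridization control scale or with the poly-A covariate, and 0 with no filter, no variance trend, array weights, the replicate block or only both ages (0 to 2). For day 14 and for day 21 against day 7, 0 were called, against 1 with only both ages (0 to 2). For day 21 against day 14, 0 were called under all 23 alternatives. The replicate block is given although the numbers did not pair the samples. It ended the calls on FDPS (1.16, adjusted p = 0.0682) and SQLE (-1.45, 0.0665).

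Some log2 changes turned sign, all but INSIG1 at day 21 (below) uncalled under the alternative; ranges in brackets are over leaving out single arrays. For day 7 against day 0, SQLE was 0.13 without day 0 replicate 3 (-0.69 to 0.13). FDFT1 was -0.39 without day 0 replicate 1 (-0.39 to 0.76) and -0.012 on the hybridization control scale, and ACAT2 was -0.13 without day 0 replicate 2, -0.04 without day 0 replicate 1 (up to 0.63), -0.15 on that scale and -0.047 with the poly-A covariate. MSMO1 was -0.055 (up to 0.94) and HSD17B7 -0.012 (up to 0.63) without day 0 replicate 1, and they were -0.0080 and -0.000895212 on the hybridization control scale. That scale moved the median of all probe sets by -0.31 for day 7 against day 0, -0.38 for day 21 against day 0 and -0.06 for day 14 against day 7. For day 14 against day 0, FDFT1 was -0.034 without day 0 replicate 1 (up to 1.12), FDPS 0.27 without day 0 replicate 3 (-0.53 to 0.27) and INSIG1 0.77 (-0.90 to 0.77). For day 21 against day 0, FDPS was 0.33 (-0.47 to 0.33) and INSIG1, called, 0.86 (-0.82 to 0.86), both without day 0 replicate 3. For day 21 against day 14, HMGCS1 was -0.046, FDPS -0.065 and INSIG1 -0.14 with the poly-A covariate. There HMGCS1 was -0.01 without day 14 replicate 1 and -0.045 without replicate 3 (up to 0.24), SQLE was 0.17 without day 14 replicate 1 or day 21 replicate 3 (down to -0.46), FDFT1 was -0.15 without day 14 replicate 1 (up to 0.49), and INSIG1 was -0.13 without day 14 replicate 3 (up to 0.21). The cause was not tested.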
